A study of Homo sapiens with 18 samples.

Results

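The response to H3B-8800 was examined in the 6 libraries labelled MDA-MB-231, a human breast cancer line, which are 6 of the 18 libraries of the series. The genes described are the 14234 of the 20263 in the deposited table that passed a low-count filter over all 18 libraries. Of these, 374 had no counts in the 6 libraries and count as neither positive nor negative, and the same filter on the 6 libraries alone left 13051. RNA sequencing covered wild-type cells under 3 labels: HCT-116, a colon cancer line, MDA-MB-231, and MHCC-97H, a liver cancer line. Each line received DMSO, the solvent, or 20 nM H3B-8800 for 24 h in high-glucose medium with 10% fetal bovine serum. All 6 groups held 3 libraries, and no group carries a genetic change beyond that of its line. Whether replicates were cultured apart is not labelled. All p-values therefore reflect only how far these samples spread, and that spread may be technical.

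H3B-8800 is a small molecule that binds SF3B1, the largest subunit of the SF3b complex. SF3b is part of the U2 small nuclear ribonucleoprotein, which recognises the branch point of introns before the spliceosome cuts them out. Compounds of this kind change which introns and exons are spliced, and they can lower the level of transcripts that are then degraded by nonsense-mediated decay. A table of counts per gene shows the total level of each gene, not the skipping of an exon. The series title asks about exon skipping of SLK, a kinase of the STE20 group, and about ENO1, the glycolytic enzyme enolase.

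The profile of the 6 libraries did not match their label at several defining markers, so they are called the libraries labelled MDA-MB-231 throughout. MDA-MB-231 cells are known for abundant vimentin and low keratins. Of 26 mesenchymal and MDA-MB-231 markers, 23 exceeded 1 CPM (counts of a gene scaled to a common library total) in all 6 libraries, but VIM itself lay between 17.0 and 20.7 CPM. SPARC had 10 counts over the 6 libraries together, and TWIST1 had 0 counts, which allows a level of up to 0.0140 CPM over the 6 (3 counts, covering counting error only). Of 17 intestinal markers in the table, 11 exceeded 1 CPM in all 6 libraries and 4 had 0 counts, CDX1, FABP1, ASCL2 and PHGR1. Among those detected were KRT20, a keratin of gut lining cells, between 867 and 919 CPM and LGALS4, an intestinal galectin, between 391.7 and 439.6 CPM. EPCAM, an epithelial adhesion molecule abundant in HCT-116 cells, had 4 counts in the 6 libraries. The libraries labelled HCT-116 had the same pattern, with means of 22.1 CPM for VIM, 912 CPM for KRT20 and 0.0808 CPM for EPCAM. On log2 values, pairs of libraries with different labels among these 12 correlated across genes with a median r of 0.987, against 0.987 and 0.988 for pairs within the control and the treated MDA-MB-231 group. No pair of libraries agreed within sampling noise, so none was counted as a duplicate.

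Depth was similar in both groups. The 3 control libraries held 35445000 ± 2470200 counts and the 3 treated libraries 35928000 ± 3011700 (mean ± SD). Markers of immune, endothelial and stromal cells were low. Their summed levels were 109 to 114, 20.4 to 23.4 and 32.2 to 33.9 CPM in the controls and 114 to 154, 21.0 to 22.7 and 24.1 to 28.4 CPM in the treated libraries. The hepatocyte list summed to 294 to 314 CPM in the controls and 256 to 285 CPM in the treated libraries. The intestinal list summed to 3324 to 3373 and 3182 to 3421 CPM in the same groups. Of the genes tested, 4 of 15 hepatocyte markers and 3 of 11 intestinal markers were lower at an unadjusted p under 0.05. These are 26.7% and 27.3%, against 3.6% of all genes tested. In either list 0 were higher, and 0 were called by edgeR. The part of these markers in the results below was not tested.

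Few genes passed the test. By edgeR's quasi-likelihood test with Benjamini-Hochberg adjustment over all 14234 genes, 5 passed an adjusted p of 0.05, which is 0.0351% of the genes tested. That fit estimated the spread of each gene from all 18 libraries. Every SE and interval from it therefore also reflects the spread under the other labels. A fit of the 6 libraries alone called 14 genes and is described further below. RNF138, MYADM and PEX5 rose (3 genes, 0.0211%), and TTYH2 and SCARA5 fell (2 genes, 0.0141%). DESeq2 called 49 genes, 19 higher and 30 lower, and all 5 were among them. At an unadjusted p under 0.05 there were 1024 genes (7.19%), 511 higher (3.59%) and 513 lower (3.6%). These shares are the background for the counts in gene lists below. The median log2 fold change was -0.0022, and its interquartile range was 0.22 on the log2 scale, against 0.17 under the HCT-116 label, where 5 genes were called (0.0351%), and 0.48 under the MHCC-97H label, where 3922 were (27.6%). Among the 8852 genes averaging at least 10 CPM, the 95% interval of the log2 fold change lay within 1 on either side of 0 for 95.9%. In 18.5% of all genes tested the 3 treated libraries did not overlap the 3 controls, all above for 1234 genes (8.67%) and all below for 1404 (9.86%). In bulk RNA, fewer cells that express a gene and less of its RNA per cell cannot be told apart. From here, levels are CPM scaled by TMM, a factor that corrects library totals for composition, unless stated otherwise.

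**Figure D1:**
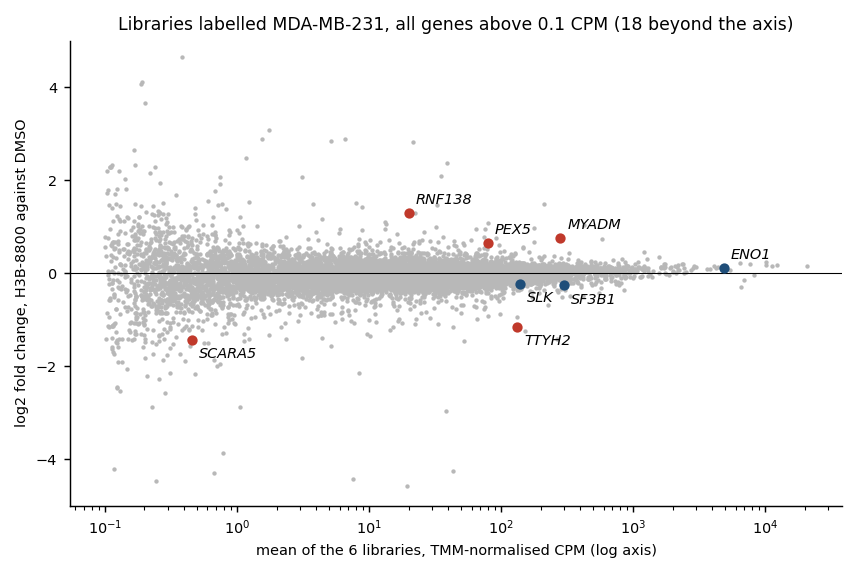
Log2 fold change of H3B-8800 against DMSO (vertical axis) against mean level in the 6 libraries (horizontal log axis, TMM-normalised CPM) for the 13469 genes above 0.1 CPM, of which 18 lie beyond the axis. Red points are the 5 called genes and blue points SLK, ENO1 and SF3B1, which were not called.

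RNF138 encodes a ubiquitin ligase recruited to DNA breaks, where it takes part in the resection of broken ends. The gene lies at chr18:32091855-32131561 (GRCh38, plus strand). Its level was 12.2, 11.3 and 11.1 CPM in the controls and 29, 28.6 and 27.7 CPM in the treated libraries, a gap many times the spread inside either group. The log2 fold change was 1.30 ± 0.09 (SE, n = 3 per group), an increase of 2.47-fold, with an adjusted p of 5.04e-06 by edgeR's quasi-likelihood test. In the libraries labelled HCT-116 the level was 27.7, 29.1 and 28.8 CPM with DMSO and 26.2, 26.4 and 31.7 CPM with H3B-8800. The 3 control libraries labelled MDA-MB-231 were therefore the low ones among these 12, and the treated libraries sat at the level of both HCT-116 groups. The treated MDA-MB-231 group differed from the HCT-116 controls by -0.0028 ± 0.088 (SE) on the log2 scale.

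MYADM encodes a membrane protein with MARVEL domains that organises ordered patches of the cell membrane. It lies at chr19:53866223-53876437 (plus strand). The controls measured 199, 211 and 221 CPM and the treated libraries 335, 365 and 361 CPM. The groups did not overlap, and the log2 fold change was 0.75 ± 0.06 (SE, n = 3 per group, adjusted p = 1.14e-05 by edgeR). In the HCT-116 groups MYADM stood at 330.0, 342 and 319.8 CPM with DMSO and 310.5, 359.9 and 341 CPM with H3B-8800. As for RNF138, the control group labelled MDA-MB-231 was the low one of the 4, and it differed from the HCT-116 controls by -0.65 ± 0.06 (log2, SE, adjusted p = 4.94e-05 by edgeR).

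RNF138 and MYADM shared this pattern over the 4 groups, so the windows from 250 bases before to 50 bases after their starts are shown, from RefSeq on GRCh38.p14. RNF138 has 1 window and MYADM has 3, for 3 starts. Capitals mark exact matches on either strand to the TATA box (TATAAA), to the CCAAT box, to the GC box (GGGCGG) and to the E-box (CACGTG).
RNF138, chr18:32091624-32091923, plus strand: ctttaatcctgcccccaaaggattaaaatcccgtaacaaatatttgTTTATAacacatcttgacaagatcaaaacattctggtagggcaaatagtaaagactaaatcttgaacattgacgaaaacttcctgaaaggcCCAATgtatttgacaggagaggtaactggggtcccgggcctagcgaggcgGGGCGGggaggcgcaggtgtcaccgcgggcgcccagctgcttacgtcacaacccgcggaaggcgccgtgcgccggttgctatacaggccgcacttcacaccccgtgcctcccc
MYADM, chr19:53866121-53866420, plus strand: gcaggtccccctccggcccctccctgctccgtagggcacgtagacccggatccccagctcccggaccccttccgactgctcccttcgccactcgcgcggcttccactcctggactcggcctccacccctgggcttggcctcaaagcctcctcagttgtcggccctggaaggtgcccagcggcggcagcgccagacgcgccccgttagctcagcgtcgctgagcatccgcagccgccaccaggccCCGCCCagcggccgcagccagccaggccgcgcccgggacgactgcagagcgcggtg
MYADM, chr19:53867633-53867932, plus strand: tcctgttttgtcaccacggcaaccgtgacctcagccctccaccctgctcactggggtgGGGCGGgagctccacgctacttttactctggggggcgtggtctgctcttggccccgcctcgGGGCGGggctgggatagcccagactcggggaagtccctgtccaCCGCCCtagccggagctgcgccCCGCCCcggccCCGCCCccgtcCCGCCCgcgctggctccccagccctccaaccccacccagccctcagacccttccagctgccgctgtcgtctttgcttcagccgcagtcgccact
MYADM, chr19:53869141-53869440, plus strand: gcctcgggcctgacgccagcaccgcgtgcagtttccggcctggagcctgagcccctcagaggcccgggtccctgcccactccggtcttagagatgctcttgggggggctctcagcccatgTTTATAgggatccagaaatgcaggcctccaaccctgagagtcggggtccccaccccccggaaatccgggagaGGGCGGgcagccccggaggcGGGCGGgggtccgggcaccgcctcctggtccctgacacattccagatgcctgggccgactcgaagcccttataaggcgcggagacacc
The RNF138 window held 1 TATA box, 1 CCAAT box and 1 GC box, with a GC content of 53.3% and 19 CpG dinucleotides. The MYADM windows held 1, 6 and 2 GC boxes and had GC contents of 73.7%, 71.0% and 68.3%, and the third held 1 TATA box. Over 35116 RefSeq windows of 300 bases, 11.5% held a TATA box, 34.6% a CCAAT box, 45.0% a GC box and 7.3% an E-box, and the median GC content was 58.7%. A match describes letters only. These windows of RNF138 and MYADM held no E-box.

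PEX5 encodes the receptor that carries enzymes with a C-terminal targeting signal into peroxisomes. It lies at chr12:7188685-7218574 (plus strand). The controls measured 59.5, 59.9 and 67.0 CPM and the treated libraries 89.7, 95.1 and 107 CPM, again with no overlap. The log2 fold change was 0.64 ± 0.07 (SE, n = 3 per group, adjusted p = 0.000445 by edgeR). PEX5 also rose under the HCT-116 label, from 68.0, 65.5 and 63.9 to 92.1, 90.3 and 91.2 CPM (0.47 ± 0.07, adjusted p = 0.016). The difference between those effects was 0.17 ± 0.10 on the log2 scale (adjusted p = 1.0), which is smaller than either effect. PEX5 was the one gene called under both labels. Under the MHCC-97H label PEX5 fell by 0.20 on the log2 scale (adjusted p = 0.042).

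For the peroxins, the proteins that build peroxisomes, no other call was made. Of 16 tested, PEX5 was the one called gene, 6 had a positive and 10 a negative fold change, and the median was -0.03. Among 22 peroxisomal enzymes, the cargo of the import pathway, none was called by edgeR, and the median was -0.02. At an unadjusted p under 0.05, 0 were higher and 4 lower (18.2% lower, against 3.6% of all genes). AGPS, an enzyme of ether lipid synthesis, measured 57.5, 60 and 56.4 CPM in the controls and 49.9, 47.9 and 46.3 CPM in the treated libraries (log2 fold change -0.27, adjusted p = 0.56).

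TTYH2 encodes a membrane protein of the tweety family. It lies at chr17:74213514-74262020 (plus strand). The controls measured 178, 186 and 188 CPM and the treated libraries 76.5, 81.3 and 90.7 CPM. The log2 fold change was -1.15 ± 0.14 (SE, n = 3 per group, adjusted p = 0.00178 by edgeR), so TTYH2 fell, and every treated library was below the lowest control. Under the HCT-116 label the order was the other way, with 126, 94.8 and 137 CPM in the controls and 182, 209.7 and 190.5 CPM in the treated libraries (log2 fold change 0.70, adjusted p = 0.244). The HCT-116 controls lay above all treated and below all control libraries of the MDA-MB-231 label. Its relative TTYH3 measured 182, 174 and 187 CPM in the controls and 182, 183 and 321 CPM in the treated libraries, where 1 library stood apart.

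SCARA5 encodes a scavenger receptor that can take up ferritin. It was near the floor in these libraries, with 29, 26 and 20 raw counts in the controls and 11, 6 and 10 in the treated libraries. The log2 fold change was -1.45 ± 0.23 (SE, n = 3 per group, adjusted p = 0.0335 by edgeR). Its mean level was 0.665 CPM in the controls and 0.245 CPM in the treated libraries, while all 6 libraries labelled MHCC-97H were above 181 CPM. The call did not hold without the treated replicate 2 of the MDA-MB-231 label, where the adjusted p was 0.389, nor in a fit of the 12 libraries labelled HCT-116 or MDA-MB-231, where it was 0.646. In all, 16 of 32 alternative settings lost it.

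**Figure D2:**
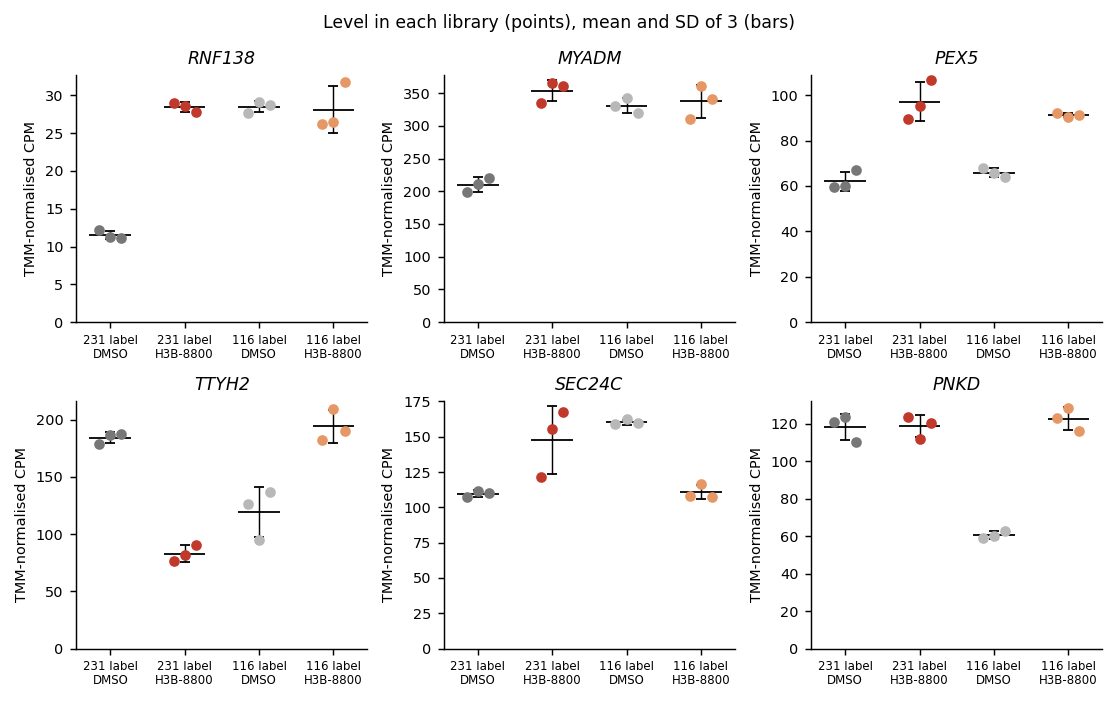
TMM-normalised CPM (vertical axes, from 0) in the 12 libraries of the HCT-116 and MDA-MB-231 labels, with the mean and SD of 3 libraries. RNF138 and MYADM are low in the 3 MDA-MB-231 controls alone, PEX5 is higher in both treated groups, TTYH2 and SEC24C move in opposite directions under the labels, and PNKD is low in the HCT-116 controls alone.

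Exons of each of the 5 called genes overlap those of another annotated gene, AC011825.3 and AC011825.4 for RNF138, AC008440.2 for MYADM, AC018653.1 for PEX5, AC100786.1 for TTYH2 and AC069113.2 for SCARA5. The strand setting of the counting is not given in the sources used here, so reads of the overlapping parts cannot be assigned with certainty.

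Between the HCT-116 and MDA-MB-231 labels the effect of H3B-8800 differed at 5 genes (0.0351% of those tested), by the interaction in the same fit. They were RNF138, MYADM, TTYH2, SEC24C and PNKD. SEC24C, a component of the coat that carries proteins out of the endoplasmic reticulum, measured 107, 112 and 110.2 CPM in the MDA-MB-231 controls and 121, 155 and 168 CPM in the treated libraries (log2 fold change 0.43, adjusted p = 0.117). Under the HCT-116 label it fell from 159, 162 and 159.9 to 108, 117 and 108 CPM (-0.53, adjusted p = 0.027). PNKD, a hydrolase-like protein linked to paroxysmal dyskinesia, overlapped in the MDA-MB-231 groups, with 121, 124 and 110.2 CPM in the controls and 123, 112 and 120.3 CPM in the treated libraries. It was at 59.0, 60 and 62.8 CPM in the HCT-116 controls and 123, 128 and 116 CPM after treatment. Next in that comparison, without passing, were DFFB, a nuclease of apoptosis, MXD1, a MYC antagonist, and SLC19A2, a thiamine transporter, each with an adjusted p of 0.133 by edgeR.

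All 4 groups with these labels were also compared in pairs, which share libraries with each other. The MDA-MB-231 controls differed from the HCT-116 controls at 5 genes (0.0351%) and from the treated HCT-116 group at 5 genes (0.0351%). The treated MDA-MB-231 group differed from the treated HCT-116 group at 1 gene (0.00703%), TTYH2, and from the HCT-116 controls at 4 genes (0.0281%), PEX5, ASNS, PSAT1 and PNKD. Between treatments inside the MDA-MB-231 label 5 genes were called, as given above. Against the MHCC-97H label the effect differed at 2871 genes (20.2%). With GC content and length taken out it differed at 1396.

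The 3 genes the study turns on were not called. SLK measured 153, 157 and 144 CPM in the controls and 138, 135 and 114 CPM in the treated libraries, with no overlap. Its log2 fold change was -0.23 ± 0.12 (SE, adjusted p = 0.73). ENO1 measured 4586, 4613 and 4890 CPM (rounded to whole numbers) in the controls and 4935, 4922 and 5309.8 CPM in the treated libraries, all above the controls. Its log2 fold change was 0.11 ± 0.21 (adjusted p = 0.95), with an SE from the spread over all 18 libraries. SF3B1, the target of H3B-8800, measured 346, 342 and 298 CPM in the controls and 295, 277 and 247 CPM after treatment, with a log2 fold change of -0.27 ± 0.15 (adjusted p = 0.76). The 95% intervals were -0.49 to 0.03 for SLK, -0.34 to 0.55 for ENO1 and -0.60 to 0.07 for SF3B1. Each of the 3 effects differed from that under the MHCC-97H label, by -1.02 ± 0.17 for SLK, 1.15 ± 0.29 for ENO1 and -0.80 ± 0.22 for SF3B1 (log2, SE, adjusted p = 0.00471, 0.0171 and 0.022 by edgeR). With GC content and length taken out, the difference was 0.97 for ENO1 (adjusted p = 0.051) and -0.29 for SF3B1 (adjusted p = 0.0783), neither past the threshold, and -0.55 for SLK, which passed.

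**Figure D3:**
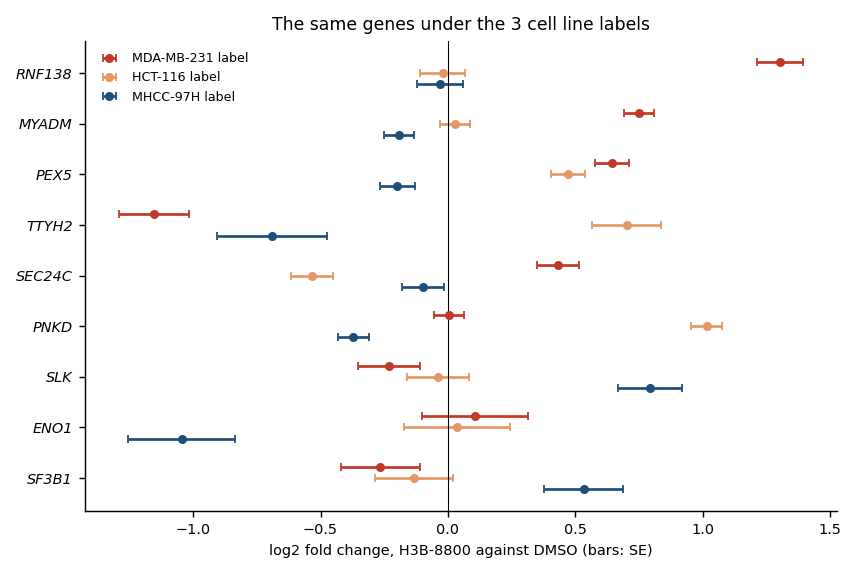
Log2 fold change of H3B-8800 against DMSO (horizontal axis) with its SE, for 9 genes under the 3 cell line labels (colours). SLK, ENO1 and SF3B1 lie nearer to 0 under the HCT-116 and MDA-MB-231 labels than under the MHCC-97H label.

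No gene of the splicing machinery was called. In the U2 particle with SF3b and SF3a, 0 of 20 genes were called by edgeR, 2 were higher and 1 lower at an unadjusted p under 0.05, and the median log2 fold change was 0.05. SF3B2, a scaffold of SF3b, measured 321, 318 and 331 CPM in the controls and 338, 367 and 358 CPM in the treated libraries. PHF5A, the SF3b subunit that lines the compound's pocket, measured 15.1, 13.0 and 14.6 CPM in the controls and 17.3, 15.3 and 16.6 CPM after treatment. In the core spliceosome 0 of 32 genes were called, 0 were higher and 1 lower at that p, and the median was 0.03. SR proteins and their kinases, which mark exons for splicing, had 0 of 22 called, 1 higher and 2 lower at that p, and a median of -0.05. SRSF4 measured 116, 125 and 105 CPM in the controls and 131, 130.4 and 132 CPM in the treated libraries, and TRA2A 24.5, 24.3 and 25.8 CPM in the controls and 21.8, 20.1 and 18.0 CPM after treatment. The hnRNP proteins, which often oppose SR proteins, had 0 of 23 called, with 1 higher and 0 lower, and the decay factors of nonsense-mediated decay 0 of 16, with 1 higher and 0 lower.

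Genes that hold a minor intron, which a separate spliceosome removes, had 0 of 19 called, 2 higher and 2 lower at an unadjusted p under 0.05, and a median of -0.06. SEC24C belongs to this list. XPO4, a nuclear transport receptor, measured 9.48, 11.3 and 9.17 CPM in the controls and 8.1, 7.35 and 6.19 CPM in the treated libraries. STE20 group kinases, the family of SLK, had 0 of 23 called, 1 higher and 0 lower at that p. That gene was STK24, with 69.8, 64.6 and 63.7 CPM in the controls and 75.7, 72.6 and 83.3 CPM in the treated libraries.

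Glycolysis genes lay above 0 more often than all genes. Of 25 tested, 0 were called by edgeR, 6 were higher and 0 lower at an unadjusted p under 0.05 (24% and 0%, against 3.59% and 3.6% of all genes), and 20 had a positive fold change (80%, against 46.9%). The median log2 fold change was 0.10, or 0.09 after a trend with GC content and length was removed. In 16 of the 25 the treated libraries were all above the controls, as in 8.67% of all genes. GAPDH, the enzyme before the first ATP of glycolysis, measured 9470.3, 9397 and 9949.7 CPM in the controls and 10530.0, 10455 and 11457 CPM in the treated libraries (log2 fold change 0.17, adjusted p = 0.65). SLC2A1, the main glucose transporter of many tumours, measured 484, 488 and 509.6 CPM in the controls and 526, 559 and 584 CPM after treatment (0.17, adjusted p = 0.62). ALDOC, an aldolase, measured 178, 184 and 186 CPM in the controls and 197, 216 and 210.0 CPM after treatment (0.18, adjusted p = 0.56). ENO2, GPI and PFKFB3 had log2 fold changes of 0.16, 0.14 and 0.15. Under the HCT-116 label the same list had a median of 0.0013. A positive fold change was as frequent among nuclear genes of oxidative phosphorylation and in the BCL2 family (80% each). The share was 76.9% for immediate early and AP-1 genes, 75.6% for cytosolic ribosomal proteins and 75% for ATF4 and its targets.

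The mitochondrially encoded genes all had a positive fold change. These are subunits of the respiratory chain made from the mitochondrial genome. Of 13 tested, 0 were called, 9 were higher at an unadjusted p under 0.05 (69.2%, against 3.59% of all genes), and in 11 the treated libraries were all above the controls, as in 8.67% of all genes. The median log2 fold change was 0.18, 0.15 with library totals as the only scaling, and 0.24 under the HCT-116 label. MT-CO2 measured 5980.2, 6063 and 6033 CPM in the controls and 6572, 7369 and 7026 CPM in the treated libraries. MT-ATP6 measured 739, 816 and 661 CPM in the controls and 829.6, 1015 and 914 CPM after treatment. Their share of all counts was 6.38% ± 0.0383 in the controls and 7.03% ± 0.307 in the treated libraries (SD, n = 3), by an exact two-sided permutation test p = 0.1, the smallest that 3 against 3 libraries allow. Nuclear genes of oxidative phosphorylation had 0 of 30 called, 0 higher and 1 lower, and a median of 0.03.

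No gene of DNA break repair was called by edgeR. Of 30 tested, 0 were higher and 2 lower at an unadjusted p under 0.05 (6.67% lower, against 3.6% of all genes). A positive fold change was seen in 5 of the 30 (16.7%, against 46.9% of all genes), and the median was -0.19, against -0.03 under the HCT-116 label. The median was -0.10 once a trend with GC content and length had been taken out, and 8 genes then had a positive fold change, against 5 before. XRCC5, the larger Ku subunit that caps broken ends, measured 274, 284 and 268 CPM in the controls and 241, 248 and 229 CPM in the treated libraries (log2 fold change -0.20, adjusted p = 0.52). MRE11, a nuclease of end resection, measured 59.6, 51.2 and 49.0 CPM in the controls and 44.9, 47.2 and 37.3 CPM after treatment. RNF138, which acts in the same repair step, rose.

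No gene of the stress programmes was called. For ATF4, the transcription factor of the integrated stress response, and its targets, 0 of 28 were called and the median was 0.08. At an unadjusted p under 0.05, 6 were higher (21.4%, against 3.59% of all genes) and 0 lower. ASNS, which makes asparagine, measured 123, 122 and 125 CPM in the controls and 144, 149.7 and 137 CPM in the treated libraries (0.22, adjusted p = 0.41). PHGDH, the first enzyme of serine synthesis, measured 88.9, 89.8 and 92.5 CPM in the controls and 109, 106 and 115 CPM after treatment (0.28, adjusted p = 0.52). PSAT1, the next enzyme of that route, measured 126, 126 and 127 CPM in the controls and 139, 135 and 138 CPM after treatment. ASNS and PSAT1 were called under the HCT-116 label, with 0.47 and 0.43.

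Chaperones had 0 higher and 6 lower of 24 at an unadjusted p under 0.05 with 0 called by edgeR, a share of 25% against 3.6% of all genes. Their median was -0.02. HSP90AA1, the inducible HSP90, measured 966, 997 and 941 CPM in the controls and 845, 852 and 574 CPM in the treated libraries, where 1 library was far below the other 2. DNAJA1, a co-chaperone, measured 169, 169.8 and 165 CPM in the controls and 151, 157 and 147 CPM after treatment, and CCT5, a chaperonin subunit, 182, 180.0 and 177 CPM in the controls and 162, 163 and 163 CPM after treatment. The p53 targets had 2 higher and 2 lower of 25, and MDM2, which degrades p53, measured 16.7, 23.1 and 51.4 CPM in the controls and 14.6, 12.4 and 15.7 CPM in the treated libraries, with controls that differed widely among themselves. Hypoxia-inducible genes had 3 higher and 1 lower of 18 (16.7% and 5.56%, against 3.59% and 3.6% of all genes). NDRG1, a stress-responsive protein, led them at 11404, 11469 and 11922 CPM in the controls and 12750.0, 13199 and 13413 CPM in the treated libraries.

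Immediate early and AP-1 genes had 5 of 26 higher (19.2%, against 3.59% of all genes) and 0 lower at an unadjusted p under 0.05. By edgeR 0 were called, and the median was 0.07. FOSL2, an AP-1 subunit, measured 429.8, 423 and 428 CPM in the controls and 479, 462 and 462 CPM after treatment. Mitosis genes had 2 higher and 4 lower of 36 (5.56% and 11.1%, against 3.59% and 3.6% of all genes), with a median of -0.02. PLK1, a mitotic kinase, was at 165, 167 and 169 CPM in the controls and 182, 190.0 and 202 CPM after treatment. HMMR, a spindle protein, was at 35.3, 35 and 36.8 CPM in the controls and 33.3, 27.0 and 29 CPM after treatment. DNA replication had 2 higher and 0 lower of 32, with RRM2, a subunit of ribonucleotide reductase, at 77.6, 68.3 and 71.7 CPM in the controls and 82.6, 84.0 and 81.0 CPM after treatment. In the BCL2 family 1 of 15 was higher, BID, which relays death signals, at 50, 47.4 and 45.7 CPM in the controls and 59.1, 50.9 and 53.6 CPM after treatment.

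The translation and turnover machinery had no called gene by edgeR. Cytosolic ribosomal proteins had 2 higher and 1 lower of 41 at an unadjusted p under 0.05, and a median of 0.05. Mitochondrial ribosomal proteins had 5 higher and 1 lower of 30 (16.7% and 3.33%, against 3.59% and 3.6% of all genes), with a median of 0.05. The proteasome, which degrades tagged proteins, had 1 higher and 3 lower of 30 (3.33% and 10%), with a median of 0.03. NRF2 targets, which answer oxidative stress, had 1 higher and 0 lower of 19, and genes of sterol and fatty acid synthesis 0 higher and 1 lower of 24. MHC class I presentation had 1 higher and 1 lower of 16. Among the MARVEL domain proteins, the family of MYADM, 1 of 16 was called, MYADM itself, and among the RNF125 family of ubiquitin ligases 1 of 4 was, RNF138 itself.

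Besides SCARA5, 4 genes that handle iron are given here; these 4 were chosen after their values were seen, and none passed the adjusted threshold. TFRC, the transferrin receptor that brings iron into cells, measured 336, 304 and 390.0 CPM in the controls and 268, 227 and 227 CPM in the treated libraries (log2 fold change -0.51, unadjusted p = 0.0034, adjusted p = 0.51 by edgeR). FTL, the light chain of ferritin that stores iron, measured 9239, 9084.5 and 9581 CPM in the controls and 10487, 11364 and 11208 CPM in the treated libraries (0.24, adjusted p = 0.41). NCOA4, which delivers ferritin for breakdown, measured 184, 189 and 180.1 CPM in the controls and 168, 158 and 155 CPM after treatment (-0.20, adjusted p = 0.37). FTH1, the ferritin heavy chain, had a log2 fold change of 0.16 (adjusted p = 0.77).

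Just outside the threshold, only genes at 10 CPM or more with groups that did not overlap were picked, a trait of 18.5% of all genes tested. WRNIP1, a protein of stalled replication forks, measured 51.9, 56.9 and 57.5 CPM in the controls and 73.8, 69.3 and 70.5 CPM in the treated libraries (log2 fold change 0.36, adjusted p = 0.086 by edgeR). IL4R, the interleukin-4 receptor, measured 10.4, 5.54 and 10.6 CPM in the controls and 19.0, 15.9 and 20.0 CPM after treatment (1.05, adjusted p = 0.099). Both had all 6 HCT-116 libraries near the treated level, at 63.3 to 75.2 CPM for WRNIP1 and 17.5 to 21.2 CPM for IL4R. Among those that followed by unadjusted p with higher values were SEC24C, MPG, CDCP1, EIF1, LENG8, ASNS and SRP68. Among those with lower values were C4BPA, SSX2IP, TWISTNB, HAUS7, PLCL2, SPP1, NCOA4, BAAT, UTP14A and DDX1. Their log2 fold changes ran from 0.20 to 0.43 and from -1.06 to -0.20, apart from WRNIP1 and IL4R. C4BPA, a complement inhibitor, measured 25.7, 24.5 and 23.6 CPM in the controls and 19.3, 15.8 and 15.9 CPM in the treated libraries. BAAT, which conjugates bile acids, measured 37.4, 41.5 and 40.2 CPM in the controls and 32.9, 31.3 and 30.0 CPM after treatment.

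**Figure D4:**
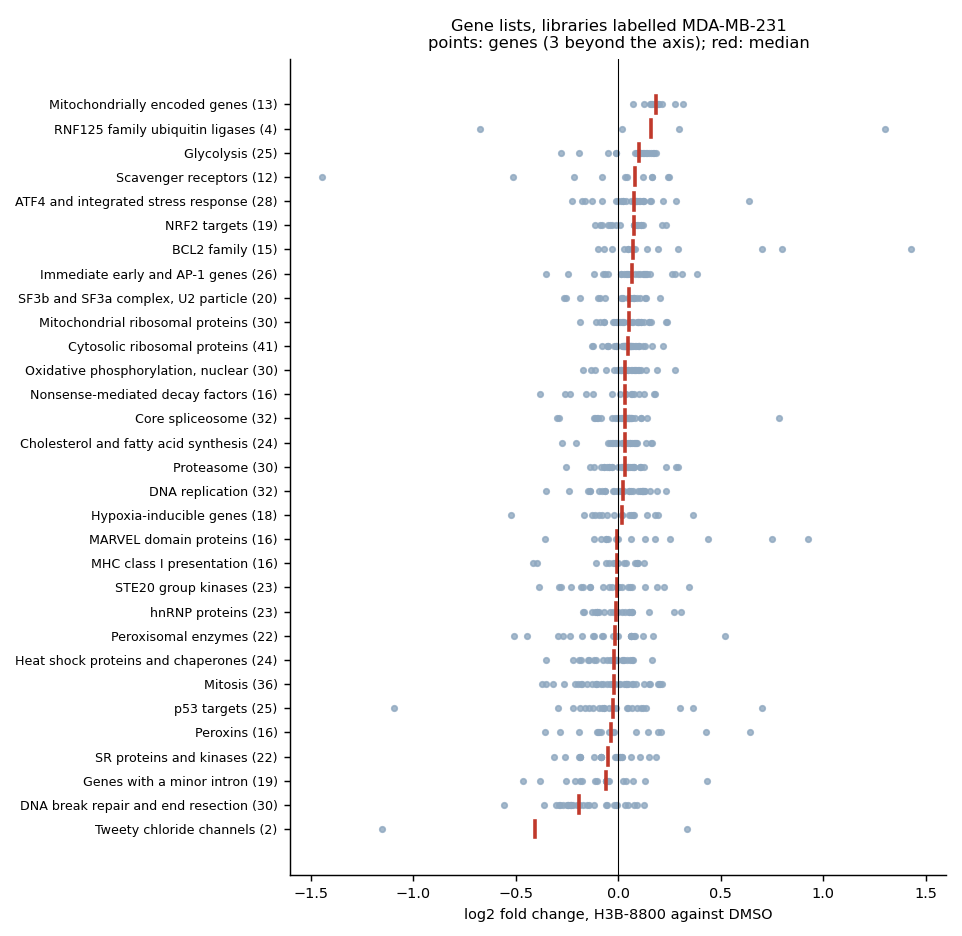
Log2 fold change of each gene (points) in 31 gene lists with the number tested in brackets, and the median of each list (red). Most medians lie between -0.1 and 0.1. The mitochondrially encoded genes, glycolysis and DNA break repair lie farthest from 0 among lists of more than 10 genes.

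A fit of these 6 libraries alone called 14 genes, 4 of which were also called with all 18 libraries. The further 10 were TACC1, CERS2, SELENOT, FAM198B, GNA12, TIMP2, WDR45B, ASB1, AC114490.2 and TRIM32. A fit of 18 libraries with GC content and length taken out called 8 genes, the 5 and TACC1, TMEM158 and C6orf223. WDR45B, a protein of autophagosome formation, measured 109, 116 and 111 CPM in the controls and 308, 313 and 314 CPM in the treated libraries. In the HCT-116 libraries it measured 294, 125 and 289 CPM with DMSO and 114, 295 and 287 CPM with H3B-8800, so both levels occurred inside each group. CERS2, a ceramide synthase, measured 273, 287 and 277 CPM in the MDA-MB-231 controls and 559.7, 573 and 582 CPM after treatment. The HCT-116 controls held 540.0, 294 and 548 CPM and the treated HCT-116 libraries 548, 313 and 555 CPM. TIMP2, an inhibitor of matrix metalloproteinases, fell in that fit from 424, 368 and 379 to 154, 137 and 145 CPM, while the HCT-116 groups held 373, 408 and 378 CPM in the controls and 385, 434 and 121 CPM after treatment.

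This jump between levels was counted over the 12 libraries. A gene counted when it averaged at least 10 CPM and its sorted values split at a gap of at least 0.5 on the log2 scale. The gap had to be no smaller than the range inside either level. Each level had to hold at least 2 libraries, so a single library standing apart did not count. Of 8863 genes, 239 met this rule (2.70%), with a median fold of 2.27 between the levels. In the MDA-MB-231 label 6 of the 239 split exactly by treatment, 4 with the treated libraries at the higher level, and 209 had both levels inside at least 1 group of 3 replicates. In the HCT-116 label 4 split exactly by treatment and 205 had both levels inside a group. The 239 genes divided the 12 libraries in 208 different ways, the most frequent of which held 4 genes. RNF138 was at 2 levels, and so were 6 of the 14 genes called with the 6 libraries alone. MYADM, TTYH2, PEX5 and SCARA5 did not meet the rule, which was set after seeing the data. MYADM missed it narrowly, with a gap of 0.489 and a widest range inside a level of 0.232. Like RNF138, it was low in the 3 MDA-MB-231 controls alone. The gap and widest range were 0.395 and 0.247 for PEX5, and 0.410 and 0.727 for TTYH2.

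**Figure D5:**
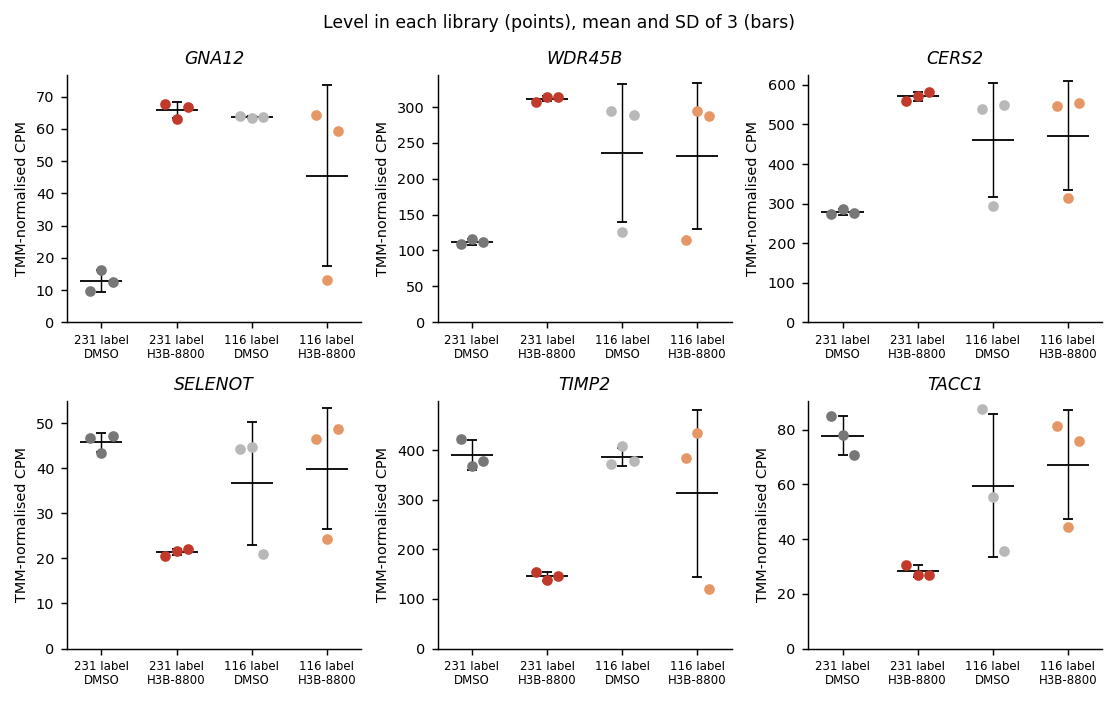
TMM-normalised CPM (vertical axes, from 0) of GNA12, WDR45B, CERS2, SELENOT, TIMP2 and TACC1 in the 12 libraries, with the mean and SD of 3 libraries. The MDA-MB-231 groups do not overlap, while single HCT-116 libraries of the same group lie at different levels.

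Large changes were few. Of 8852 genes averaging at least 10 CPM, 29 (0.328%) had a log2 fold change of 1 or more in size. Of the 29, 12 were higher and 17 lower, and 2 were called, RNF138 and TTYH2. Of the same 29, 16 were at 2 levels, against 2.70% of 8863 genes. A change of this size itself makes a wide gap more likely, so these shares are not like for like. Counted separately, 13 of the 29 had overlapping groups and 16 did not, while 18.5% of all genes tested had groups without overlap. Picking genes by the size of this change also favours groups that do not overlap.

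Fold changes varied with the composition of genes. Across 14223 genes with an annotation, Spearman's rho between the log2 fold change and GC content was 0.31, and it was -0.16 for exonic length and -0.12 for the number of introns; genes are not independent replicates. Among the 3556 genes with the lowest GC content, 48 were higher and 260 lower at an unadjusted p under 0.05, and among the 3556 with the highest 166 were higher and 45 lower. Among genes without an intron, 35 of 550 were higher and 7 lower, while among genes with 16 introns or more 60 of 2749 were higher and 153 lower. Without treated replicate 3 the rho with GC content was 0.16. Under the HCT-116 label the 3 values had the same sign, 0.18, -0.12 and -0.072. Under the MHCC-97H label the 3 values had the opposite sign, -0.52, 0.36 and 0.24.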

How the data were processed

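The deposited table holds raw counts, whole-number reads per gene for 20263 Ensembl genes, made by the authors. fastp, HISAT2 and the build GRCh38 appear in the submitters' processing notes. The counter, its strand setting, the kit and all versions: not given in the sources used here. The 6 libraries held 32885038 to 39239831 counts each. Names, coordinates, lengths, introns and GC content came from GENCODE 29, which held 20224 of the genes.

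All 18 libraries entered 1 edgeR 4.0.16 model under R 4.3.3, with a mean for each of 6 groups, TMM scaling, filterByExpr and the robust quasi-likelihood F test. Calls needed a Benjamini-Hochberg adjusted p below 0.05. The script was tested on simulated data. The MDA-MB-231 label and the gene lists were chosen with earlier results of these data known. The text names SLK, ENO1 and SF3B1, called genes in the fits of 18 libraries, of 6 and with GC content and length removed, the 10 higher and 10 lower genes next in unadjusted p with separate groups at 10 CPM or more, up to 3 members of each list by unadjusted p, and genes whose effect differed from the HCT-116 label; 1 gene that the rule names is not reported here. Markers, ENO2, GPI, PFKFB3, FTH1 and the grouping of iron genes fall outside that rule, and all but the markers were chosen after their values were seen. Alternatives were limma voom 3.58.1, DESeq2 1.42.0, other scalings and filters, a replicate block, GC and length removal, and leaving out each library.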

Additional observations from a re-analysis of the deposited data

Results flagged for a closer look

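By the interaction over both labels in edgeR, the H3B-8800 effect under the MDA-MB-231 label differed from that under the HCT-116 label at 5 genes. Written as MDA-MB-231 minus HCT-116 on the log2 scale, the difference was 1.32 ± 0.13 (SE) for RNF138, 0.72 ± 0.08 for MYADM, -1.85 ± 0.19 for TTYH2, -1.01 ± 0.08 for PNKD and 0.97 ± 0.12 for SEC24C. The adjusted p-values by edgeR were 0.00019, 0.000914, 0.000431, 6.71e-05 and 0.00141. For RNF138 and MYADM the 3 MDA-MB-231 controls were the libraries that stood apart, and for PNKD the 3 HCT-116 controls.

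Against the MHCC-97H label the effect differed at these genes and at SLK, ENO1 and SF3B1. The differences were -1.02 for SLK, 1.15 for ENO1, -0.80 for SF3B1, 1.33 for RNF138, 0.94 for MYADM, 0.84 for PEX5, -1.20 for SCARA5, 0.38 for PNKD and 0.53 for SEC24C. At TTYH2 the difference did not pass the threshold (adjusted p = 0.22 by edgeR).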

How the results depend on the processing

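RNF138, MYADM and PEX5 were called under all alternatives that tested them (31, 32 and 32). Of the single genes, rho values and mitochondrial share recomputed under the alternatives, none changed sign. Medians of several gene lists near 0 did. With GC content and length removed, those of SR proteins, mitosis genes, peroxins and peroxisomal enzymes became 0.057, 0.038, 0.021 and 0.014. With library totals as the only scaling, that of the proteasome became -0.00049. TTYH2 lost its call in the fits with a replicate block, and SCARA5 lost it in 16 of 32 alternatives (adjusted p 0.00777 to 0.646). The 5 calls of the MDA-MB-231 label became 49 with DESeq2, 8 with GC content and length removed and 14 with the 6 libraries alone. They ranged from 4 to 8 when 1 library was left out, with 8 without HCT-116 control replicate 3 and without treated HCT-116 replicate 2. The 5 genes whose effect differed from the HCT-116 label became 26 with DESeq2. They ranged from 5 to 9 when 1 library was left out, with 9 without HCT-116 control replicate 3. Without the genes at 2 levels 3 were called, but that setting itself takes out RNF138 and PNKD. The 2871 that differed from the MHCC-97H label became 1396 with GC content and length removed and ranged from 1470 (without treated MDA-MB-231 replicate 3) to 3661. Libraries whose removal also moved that count by over 1.5 times were MHCC-97H control replicates 2 (1832) and 3 (1602), treated MHCC-97H replicate 2 (1806) and MDA-MB-231 controls 1 (1675) and 2 (1793). With GC content and length removed the differences from the MHCC-97H label lost their calls for ENO1 (adjusted p = 0.051 by edgeR) and SF3B1 (0.0783), and SF3B1 also lost it without MHCC-97H control replicate 3 (0.057), MDA-MB-231 control replicate 1 (0.0526) or treated replicate 3 (0.0611).

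The pairwise counts were recomputed with settings chosen after seeing the data, as was the removal of genes at 2 levels. The 5 genes between the controls became 8 with limma voom and 23 with DESeq2 (4 to 7 when 1 library was left out). The 1 gene between the treated groups became 2 and 30 (1 to 4). The 4 genes between the treated MDA-MB-231 group and the HCT-116 controls became 19 and 65 (4 to 9). The 5 genes between the MDA-MB-231 controls and the treated HCT-116 group became 15 with DESeq2, and ranged from 3 to 14, the latter without treated HCT-116 replicate 1. The difference in mitochondrial share ranged from 0.524 to 0.816 percentage points. The rho with GC content was 0.442 at 10 CPM or more and ranged from 0.163 (without treated replicate 3) to 0.348 when 1 library was left out. The cause of these changes was not tested.

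Replicate numbers are shared between groups, but same-numbered deviations from the group means correlated by 0.17, 0.037 and 0.084 over 8852 genes, so the numbers were not taken as pairs. Control replicates 1 and 3 correlated best with their own number, and control replicate 2 with treated replicate 3 (0.071). With the replicate block 6 genes were called for the MDA-MB-231 label, 3 of them shared with the 5, and 6 and 4002 genes differed from the HCT-116 and MHCC-97H labels. With 3 libraries a group, an exact permutation test of a single value cannot go below p = 0.1, and genes with few counts, such as SCARA5, are limited by depth.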
